A study of Mus musculus with 5 samples.

Results

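Glycine tRNAs carry glycine to the ribosome, and in the mouse melRNA-seq data (sequencing of RNAs of medium length) they were counted under 12 names out of 1042 RNA and repeat names listed in 5 libraries. The names were chosen by their label alone, as those beginning with tRNA_ and ending in Gly and one of 4 anticodons. Of these, 5 had the anticodon GCC, 5 had CCC, 1 had TCC and 1 had ACC, and the tables listed 216 other tRNA names. The glycine group itself was chosen by its measured levels, enzyme ratios and concentration in these libraries, which were known beforehand, so these values are given below as a description, without a test.

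A tRNA gene is transcribed by RNA polymerase III from a promoter inside the gene. The new transcript has a triphosphate at its 5' end and a leader, which RNase P removes, leaving a mature tRNA with a 5' monophosphate. The anticodon pairs with the codon in the mRNA, and wobble pairing lets a tRNA read more than one of the glycine codons, so that GCC, CCC and TCC anticodons cover them and genes for an ACC anticodon are rare.

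All libraries were made from C57BL/6J mice at postnatal day 7, an age that for the testes comes from the study's supplementary listing. Whole testis gave 1 library from untreated RNA, 1 after 25 U of TAP (tobacco acid pyrophosphatase) for 1.5 h and 1 after 20 U of 5' polyphosphatase (5Pase) for 0.5 h, each from 600 ng of total RNA with the TruSeq Small RNA kit. Spermatogonia, the mitotic male germ cells, were sorted with an antibody to EpCAM, treated with 25 U of RppH (RNA 5' pyrophosphohydrolase) for 1 h and made into 2 replicate libraries with an NEBNext kit. TAP and RppH turn both caps and triphosphates into a monophosphate, 5Pase acts on triphosphates and leaves caps, and only a 5' monophosphate accepts the 5' adaptor. Tissue, enzyme and kit all differed between spermatogonia and testis, so their parts in any difference cannot be told apart. In bulk RNA, fewer cells of a type and less RNA per cell cannot be told apart either. The tables hold no mRNA, so cell type markers could not be checked.

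The libraries held 1067851 to 1160933 reads with a name in testis, and 3166394 and 1993087 in spermatogonia. Levels are given as RPM, reads per 1000000 reads of 5.8S rRNA in the same library, the scale of the study. The 5.8S rRNA took 27.2% of the listed reads in untreated testis, 50.2% after TAP and 19.2% after 5Pase, and 39.1% and 25.9% in spermatogonia replicates 1 and 2, and these differences enter every RPM value. One read was worth from 0.808 RPM in spermatogonia replicate 1 to 4.81 RPM after 5Pase. Intervals of ratios and shares are 95% intervals of the read counts (Wilson for shares), and a level of 3 reads or fewer is treated as not distinguishable from 0. Without molecular identifiers they cover counting error only, and as each testis treatment had 1 library, they compare libraries and not treatments.

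The names do not map one to one to genes. RefSeq annotates 28 glycine tRNA genes on 9 chromosomes of the mouse assembly GRCm38.p6, of which 14 have the anticodon GCC, 6 CCC, 7 TCC and 1 ACC. The GCC and CCC genes are 71 nt long, the TCC genes 72 nt and the ACC gene, n-TGacc1, 74 nt, so levels were not divided by length. All are shorter than the insert of 115 to 255 nt for which the testis libraries were selected. The labels of the spermatogonia libraries repeat this range along with the rest of the testis protocol, whereas the study's methods name only a gel selection for them. The counts do not tell whether a read came from a mature tRNA, a precursor with flanks or a longer transcript. By chromosome and anticodon, 5 of the 12 names could belong to a single RefSeq gene. These are chr4.trna1314-GlyGCC (n-TGgcc1), chr4.trna67-GlyCCC (n-TGccc3), chr6.trna317-GlyCCC (n-TGccc4), chr3.trna746-GlyTCC (n-TGtcc7) and chr11.trna205-GlyACC (n-TGacc1). The other names had several RefSeq genes of their chromosome and anticodon to choose from. How reads of similar gene copies were split among names of the same anticodon was not tested, so values of single names are less certain than the sum per anticodon.

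Glycine tRNAs were more abundant per 5.8S rRNA read in spermatogonia and after 5Pase than in the other testis libraries, and their anticodon make-up differed between the tissues. The 12 names held 1049 reads in untreated testis, 845 after TAP, 1627 after 5Pase, and 10415 and 5088 in spermatogonia replicates 1 and 2. These were levels of 3318, 1576 and 7822 RPM in the 3 testis libraries, and 8420 and 9868 RPM in spermatogonia (9144 ± 1024 RPM, SD, n = 2). Both spermatogonia libraries stood above every testis library, the 5Pase library being the nearest. As a share of all listed reads, glycine tRNA made up 0.0904% in untreated testis, 0.0791% after TAP and 0.150% after 5Pase. In spermatogonia the share was 0.329% in replicate 1 and 0.255% in replicate 2. The order of the 2 replicates thus depended on the scale, with replicate 2 higher per 5.8S rRNA read and replicate 1 higher per listed read.

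Among tRNA reads, glycine ranked high in every library without ever being the most abundant amino acid. Its share of the tRNA reads was 7.42% in untreated testis (interval 6.99% to 7.86%), 4.26% after TAP (3.99% to 4.55%) and 9.05% after 5Pase (8.64% to 9.47%). Spermatogonia replicate 1 had a share of 13.8% (13.6% to 14.1%) and replicate 2 one of 7.19% (7.0% to 7.38%), or 10.5% ± 4.70 (SD, n = 2). Both replicates lay above the TAP share. Replicate 1 also lay above the untreated and 5Pase shares, whereas replicate 2 lay within the untreated interval and below the 5Pase share. The replicates thus did not separate from all testis libraries by this measure. In testis, glycine came after glutamate tRNA, which took 80.3%, 69.3% and 60.6% of the tRNA reads in the untreated, TAP and 5Pase libraries. Grouped by the suffix of the name, glycine had rank 2 of 20 groups in untreated testis, 3 of 21 after TAP, just under arginine (4.38%), and 2 of 22 after 5Pase. In spermatogonia its rank was 4 of 22 in both replicates, after alanine, valine and leucine. The 22 groups include the suffix Sup, which names no amino acid. Leucine alone went from 15.6% in replicate 1 to 34.1% in replicate 2.

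**Figure D1:**
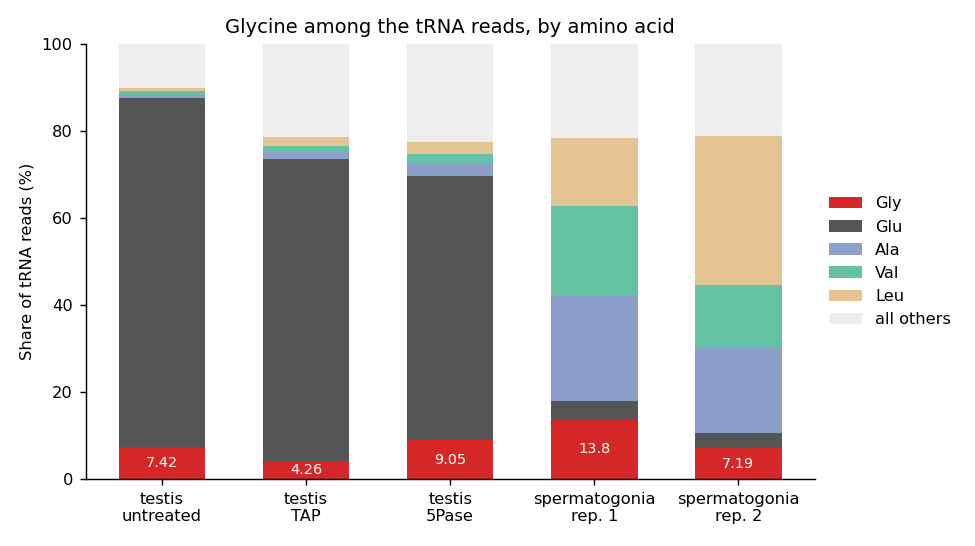
Share of tRNA reads by amino acid (y axis, percent) in the 5 libraries (x axis). Red is glycine, with its value printed, from 4.26% after TAP to 13.8% in spermatogonia replicate 1, and dark grey is glutamate, which took most of the tRNA reads in testis only.

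The amino acids whose level over the 5 libraries was most like that of glycine were lysine, arginine and glutamine, by the distance between centred log2(RPM + 1) values over the 5 libraries. The 8 other amino acids with at least 50 reads in every library were compared, and the distance was 1.39 for lysine, 2.68 for arginine and 2.73 for glutamine. Lysine tRNA had 984, 1153 and 2351 RPM in untreated, TAP and 5Pase testis, and 1639 and 3518 RPM in spermatogonia.

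The reads were spread over the names very unevenly, and 3 names of each library carried most of them. These were 86.4% of the glycine reads in untreated testis, 72.8% after TAP and 82.9% after 5Pase, and 86.3% and 86.9% in spermatogonia. The name chr8.trna887-GlyGCC led in untreated testis with 49.8% (46.7% to 52.8%) and after 5Pase with 47.4% (45.0% to 49.8%). After TAP the leading name was chr3.trna755-GlyCCC with 35.6% (32.5% to 38.9%), and chr8.trna887-GlyGCC had 24.9%. In spermatogonia chr11.trna205-GlyACC led with 40.3% (39.4% to 41.3%) and 36.3% (35.0% to 37.6%), followed by chr8.trna887-GlyGCC with 34.1% and 35.4%. In replicate 2 the value of chr8.trna887-GlyGCC lay within the interval of chr11.trna205-GlyACC, so their order was not resolved there.

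The effective number of names, the inverse of the summed squared shares, was 2.81 in untreated testis, 4.53 after TAP and 3.08 after 5Pase, and 3.31 and 3.50 in spermatogonia. It took 5, 6 and 5 names to hold 90% of the glycine reads in the testis libraries, and 4 names in each spermatogonia replicate. Suffix groups with at least 50 reads in a library were ordered from the highest effective number. This number cannot exceed the number of names in a group, so the order is not one of evenness. Glycine had rank 5 of 10 in untreated testis, 2 of 17 after TAP and 7 of 17 after 5Pase. Its rank was 4 and 5 of 21 in spermatogonia, where the median of the other groups, Sup among them, was 2.36 and 2.47.

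**Figure D2:**
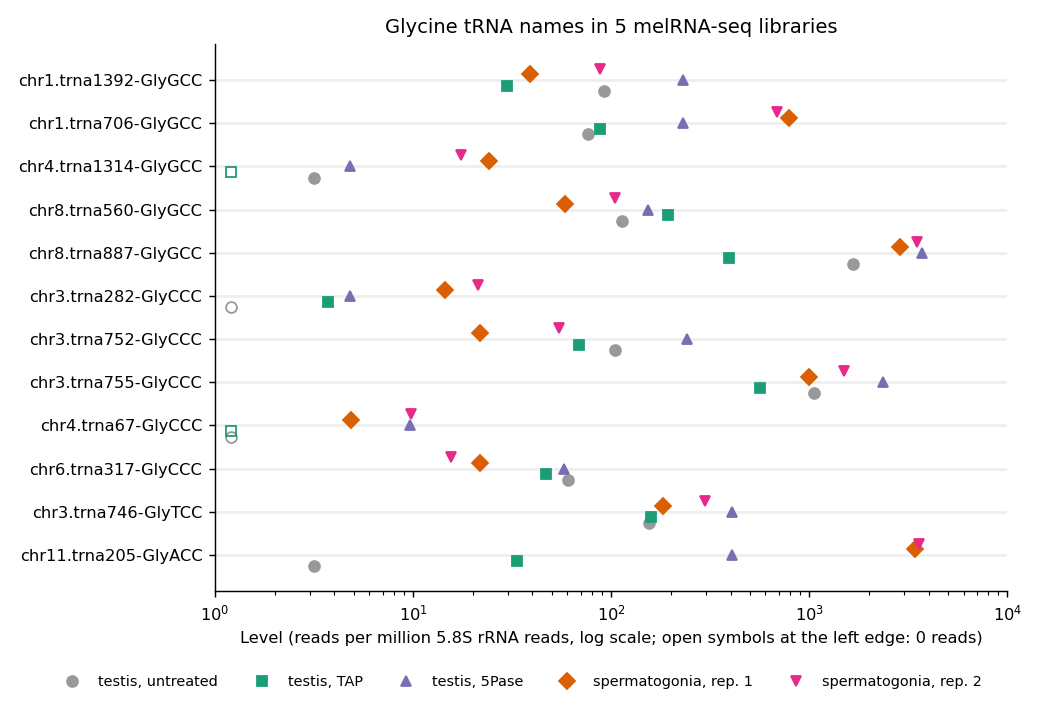
Level of each of the 12 glycine tRNA names (rows) in RPM (log x axis) in the 5 libraries (symbols), with open symbols at the left edge for 0 reads. The name chr11.trna205-GlyACC runs from 3.16 RPM in untreated testis to 3395 and 3582 RPM in spermatogonia, whereas chr3.trna746-GlyTCC stays between 155 and 409 RPM.

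GlyGCC was the most abundant glycine anticodon in every library, although after TAP its 377 reads were within counting error of the 365 reads of GlyCCC. It had 612, 377 and 900 reads in untreated, TAP and 5Pase testis, or 1936, 703 and 4327 RPM, and 4677 and 2262 reads in spermatogonia, or 3781 and 4387 RPM. Its share of the glycine reads was 58.3%, 44.6% and 55.3% in the testis libraries and 44.7% ± 0.317 (SD, n = 2) in spermatogonia. The largest part of these reads belonged to chr8.trna887-GlyGCC, with 522, 210 and 771 reads in testis and 3549 and 1800 in spermatogonia. These were 85.3%, 55.7% and 85.7% of the GlyGCC reads in untreated, TAP and 5Pase testis, and 75.9% and 79.6% in spermatogonia, so after TAP the other GCC names held a larger part than elsewhere. chr1.trna706-GlyGCC had 24, 47 and 48 reads in testis and 978 and 354 in spermatogonia. chr8.trna560-GlyGCC had 36, 104 and 32 reads in testis, with the TAP library the highest, and 72 and 54 in spermatogonia. chr1.trna1392-GlyGCC had from 16 to 48 reads in each of the 5 libraries, and chr4.trna1314-GlyGCC had at most 1 read per testis library but 30 and 9 reads in spermatogonia.

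GlyCCC came next in the testis libraries, and stood behind both GlyGCC and GlyACC in spermatogonia. It held 36.9%, 43.2% and 34.2% of the glycine reads in untreated, TAP and 5Pase testis, at 1224, 681 and 2678 RPM. In spermatogonia it held 14.4% ± 2.54 (SD, n = 2), at 1062 and 1600 RPM. The leading name was chr3.trna755-GlyCCC, with 335, 301 and 492 reads in testis and 1236 and 773 in spermatogonia, or 82.5% to 88.3% of the GlyCCC reads in testis and 94.1% and 93.7% in spermatogonia. chr3.trna752-GlyCCC had 27 to 50 reads per library and chr6.trna317-GlyCCC 8 to 27. chr3.trna282-GlyCCC and chr4.trna67-GlyCCC had at most 2 reads in any testis library, which is not above the limit of 3 reads, and 18 and 11 reads and 6 and 5 reads in the spermatogonia replicates.

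The single GlyTCC name, chr3.trna746-GlyTCC, varied less between libraries in RPM than the other anticodons, but not as a share of the glycine reads. It had 49, 85 and 85 reads in untreated, TAP and 5Pase testis, or 155, 159 and 409 RPM, and 225 and 154 reads in spermatogonia, or 182 and 299 RPM. Its share of the glycine reads was 4.67%, 10.1% and 5.22% in testis and 2.59% ± 0.613 (SD, n = 2) in spermatogonia.

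The single GlyACC name, chr11.trna205-GlyACC, differed most between the libraries. It had 1 read in untreated testis, 18 after TAP and 85 after 5Pase, against 4199 and 1847 reads in spermatogonia replicates 1 and 2. These were 3.16, 33.6 and 409 RPM in testis and 3395 and 3582 RPM in spermatogonia (3488 ± 133 RPM, SD, n = 2). The untreated value of 1 read is not distinguishable from 0, and both spermatogonia replicates lay far above all testis libraries. Its share of the glycine reads was 0.0953% (0.0168% to 0.538%) in untreated testis, 2.13% (1.35% to 3.34%) after TAP, 5.22% (4.24% to 6.41%) after 5Pase and 38.3% ± 2.84 (SD, n = 2) in spermatogonia. Among all tRNA anticodons with a read, GlyACC ranked 41 of 45 in untreated testis, 36 of 46 after TAP and 21 of 49 after 5Pase, but 6 and 7 of 49 in spermatogonia.

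**Figure D3:**
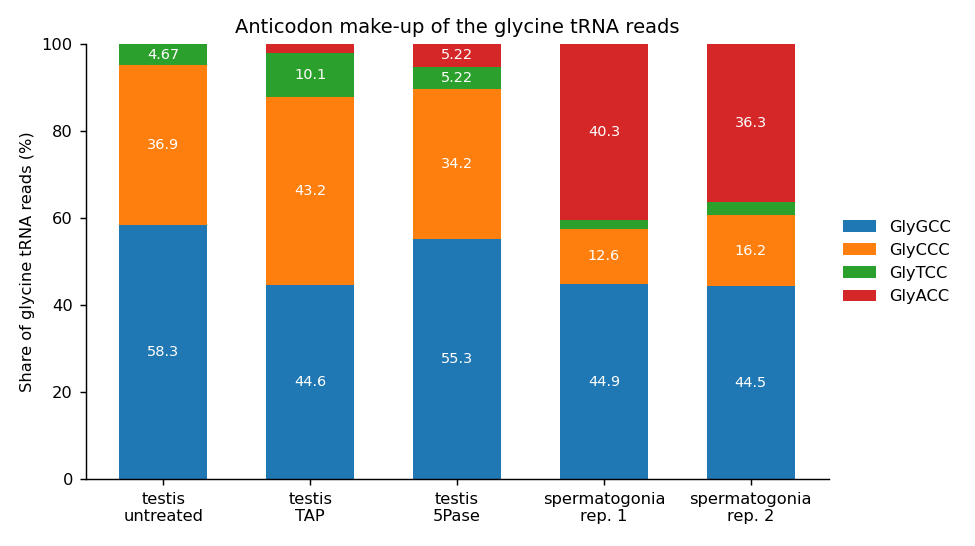
Share of the glycine tRNA reads (y axis, percent) by anticodon in the 5 libraries (x axis). GlyACC (red) takes 40.3% and 36.3% in spermatogonia and at most 5.22% in testis, while GlyCCC (orange) takes 34.2% to 43.2% in testis and 12.6% and 16.2% in spermatogonia.

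The testis libraries address which 5' ends the RNAs carry. A transcript with a triphosphate should be read mainly after an enzyme, and one with a monophosphate also without. The control for a triphosphate is 5S rRNA, a polymerase III transcript, and that for a monophosphate is 5.8S rRNA, the denominator. The untreated library still held 3193 reads of 5S rRNA, so a read without an enzyme does not by itself show a monophosphate. 5S rRNA rose from 10100.5 RPM in untreated testis to 41821 RPM after TAP and 72501 RPM after 5Pase, that is 4.14-fold (3.99 to 4.30) and 7.18-fold (6.91 to 7.46). The study states a larger gain of 5S rRNA after TAP, also relative to 5.8S rRNA. The reason for this difference was not tested. Names were compared where both libraries together had at least 20 reads and the denominator library at least 4, and a difference of 2-fold or more was counted.

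After TAP, glycine tRNA was lower than in untreated testis, at 0.475 times its level (0.434 to 0.520). The sum of the other tRNA names was 0.855 times (0.836 to 0.875). Most of that sum was glutamate tRNA, at 0.714 times (0.696 to 0.732). By anticodon, GlyGCC was 0.363 times (0.320 to 0.413) and GlyCCC 0.556 times (0.482 to 0.642), whereas the interval of GlyTCC, 1.02 times (0.720 to 1.45), included no change. GlyACC had 18 reads against 1, a ratio of 10.6 with an exact interval of 1.68 to 442, and its untreated read was under the minimum set above, so it was not counted.

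Of the 8 glycine names with enough reads, 2 were lower after TAP by 2-fold or more and 0 were higher. Over all 232 names compared, 55.6% were lower and 19% higher, and the median ratio was 0.390, so the glycine names (median 0.719) were not lower than the names as a whole. The other tRNA names stood higher, with a median of 1.29 and 14 of 37 (37.8%) up by 2-fold. The 2 glycine names that were lower were chr8.trna887-GlyGCC at 0.237 times (0.202 to 0.278) and chr1.trna1392-GlyGCC at 0.325 times (0.177 to 0.599). The highest ratios were those of chr8.trna560-GlyGCC, 1.70 (1.17 to 2.49), and chr1.trna706-GlyGCC, 1.15 (0.706 to 1.89). Names with the anticodon GCC were thus found at both ends of the range. Per listed read, 1 glycine name was lower and 2 were higher, against 40.1% and 27.6% of all names, and the glycine sum was 0.876 times its untreated level. With median-of-ratios size factors the direction turned, to 1.66 times. The direction of this ratio therefore depended on the denominator.

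After 5Pase, glycine tRNA was higher than in untreated testis, at 2.36 times (2.18 to 2.55), against 1.90 times (1.85 to 1.94) for the sum of the other tRNA names. Glutamate tRNA held 10900 of the 16357 reads in that sum after 5Pase and was 1.46 times (1.42 to 1.50) its untreated level. The sum therefore does not stand for the other amino acids, and by single name the other tRNA names had the higher median, 3.16 against 2.27. GlyGCC was 2.24 times (2.02 to 2.48), GlyCCC 2.19 times (1.92 to 2.49) and GlyTCC 2.64 times (1.85 to 3.75) its untreated level. These 3 intervals overlapped, so the anticodons could not be told apart by their response to 5Pase. GlyACC had 85 reads against 1, a ratio of 129 with an exact interval of 22.6 to 5162, which rests on that 1 read and was not set against the other anticodons.

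Of 8 glycine names, 6 were higher after 5Pase by 2-fold or more and 0 were lower, against 32.6% and 3.39% of the 236 names compared. Of the other tRNA names, 24 of 40 (60%) were higher, with a median of 3.16, and the glycine median was 2.27. The highest glycine name was chr1.trna706-GlyGCC at 3.04 times (1.86 to 4.96), followed by chr3.trna746-GlyTCC. The leading names of testis, chr8.trna887-GlyGCC at 2.24 times (2.01 to 2.51) and chr3.trna755-GlyCCC at 2.23 times (1.94 to 2.56), had nearly the same ratio. The lowest were chr8.trna560-GlyGCC at 1.35 times (0.839 to 2.18) and chr6.trna317-GlyCCC at 0.960 times (0.466 to 1.98), whose intervals included 1. Per listed read the glycine sum was 1.66 times, and 1 name stayed above 2-fold, against 19.9% of all names higher and 5.93% lower.

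**Figure D4:**
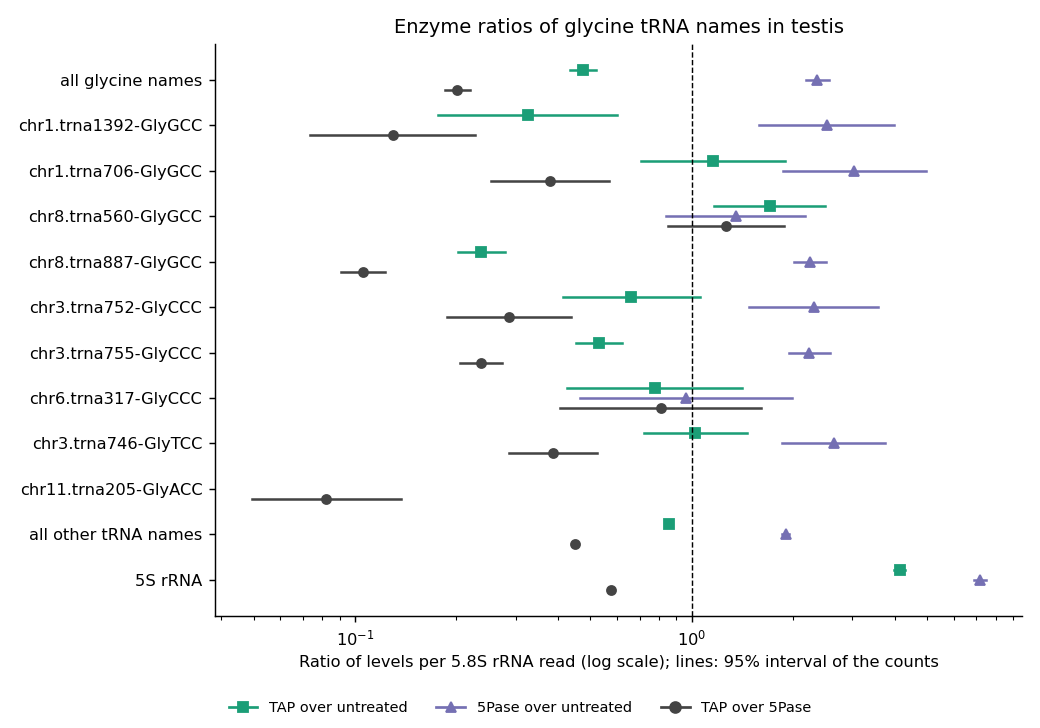
Ratio of levels between testis libraries (log x axis) for all glycine names together, each glycine name with enough reads, all other tRNA names and 5S rRNA (rows), with points for the ratio and lines for its 95% interval of the counts. The ratio of 5Pase over untreated lies near 2.36 for most glycine names, while TAP over untreated runs from 0.237 for chr8.trna887-GlyGCC to 1.70 for chr8.trna560-GlyGCC.

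The direct comparison of TAP with 5Pase uses the same libraries as the comparisons above and adds no independent data. Glycine tRNA after TAP was 0.202 times (0.185 to 0.219) its level after 5Pase, against 0.451 times (0.441 to 0.460) for the other tRNA names and 0.577 times (0.565 to 0.589) for 5S rRNA. Most reads of the other tRNA names were glutamate tRNA, at 0.489 times (0.477 to 0.502). The ratio was 0.163 for GlyGCC (0.144 to 0.183), 0.254 for GlyCCC (0.223 to 0.290), 0.388 for GlyTCC (0.287 to 0.524) and 0.0822 for GlyACC (0.0494 to 0.137). The intervals of GlyACC, GlyGCC and GlyCCC did not overlap, and that of GlyTCC touched that of GlyCCC only.

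Of 9 glycine names, 7 were lower after TAP than after 5Pase by 2-fold or more and 0 were higher, against 74.7% and 4.46% of the 269 names compared. The glycine median, 0.287, was close to that of all names, 0.285, and of the other tRNA names, 0.338. The lowest were chr11.trna205-GlyACC and chr8.trna887-GlyGCC, at 0.0822 and 0.106 times. The exceptions were chr8.trna560-GlyGCC at 1.26 times (0.849 to 1.87), rank 4 from the highest of 74 tRNA names, and chr6.trna317-GlyCCC at 0.808 times (0.406 to 1.61). Per listed read 3 glycine names were lower and 2 were higher, against 37.9% and 14.1% of all names, and the glycine sum was 0.526 times. With median-of-ratios size factors it was 1.12 times, so this direction too depended on the denominator.

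The comparison of germ cells with whole testis set the spermatogonia replicates against the testis TAP library, whose enzyme acts on the same 5' ends as RppH. Glycine tRNA was 5.34 times (4.98 to 5.73) its TAP level in replicate 1 and 6.26 times (5.82 to 6.73) in replicate 2 (mean 5.8, n = 2). The sum of the other tRNA names was 1.48 and 3.60 times its TAP level. Glutamate tRNA held 13743 of its 18995 TAP reads and was 0.0991 and 0.188 times its TAP level in spermatogonia. This sum therefore does not stand for the other amino acids. Mean ratios were higher than glycine's for cysteine (95.2), leucine, valine, serine, alanine, phenylalanine, tryptophan (5 TAP reads) and isoleucine (7.29). The remaining groups with a ratio had lower ones, asparagine (4.74) being the highest of them. GlyACC was 101 times (63.6 to 161) and 107 times (67.1 to 170), or 104 ± 3.95 (SD, n = 2), against 5.81 ± 0.609 for GlyGCC, 1.95 ± 0.558 for GlyCCC and 1.52 ± 0.521 for GlyTCC. Without GlyACC, the glycine sum was 3.26 and 4.07 times its TAP level.

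Of 9 glycine names compared, 3 were higher in both replicates by 2-fold or more and 1 was lower, against 48.3% and 19.5% of 298 names. Per listed read 3 were higher and 3 lower, against 39.3% and 24.5% of all names. The 3 higher names were chr11.trna205-GlyACC, chr1.trna706-GlyGCC at 9.02 times (6.73 to 12.1) and 7.83 times (5.78 to 10.6), and chr8.trna887-GlyGCC at 7.32 times (6.37 to 8.42) and 8.91 times (7.72 to 10.3). The lower one was chr6.trna317-GlyCCC, at 0.468 times (0.272 to 0.806) and 0.333 times (0.150 to 0.738). chr8.trna560-GlyGCC was also low, at 0.300 times (0.222 to 0.405) and 0.540 times (0.389 to 0.750), and chr3.trna752-GlyCCC was at 0.316 and 0.787 times. Names of one anticodon thus lay on both sides of 1. The glycine medians were 1.30 and 2.67 in replicates 1 and 2, against 1.93 and 2.92 for all names and 2.17 and 5.69 for the other tRNA names.

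GlyACC had the highest ratio of all 90 tRNA names compared, in both replicates. The tables held 228 tRNA names, and those with under 4 TAP reads could not be ranked. Summed over all their names, the cysteine tRNAs were 74.6 times (52.1 to 107) and 116 times (80.8 to 166) their TAP level of 30 reads. A rise of this size was thus not particular to GlyACC. The first place of GlyACC was also not resolved from its neighbours. The ratio of 1 other name, chrX.trna372-AlaTGC with 83.2, lay within the interval of GlyACC in replicate 1. In replicate 2, 7 other names lay within it, from 71.1 to 98.2, the highest being chr4.trna16-SerAGA. The intervals of the other names were not computed, so more names may be unresolved from GlyACC than counted here. The GlyACC ratio rests on 18 reads in the TAP library.

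**Figure D5:**
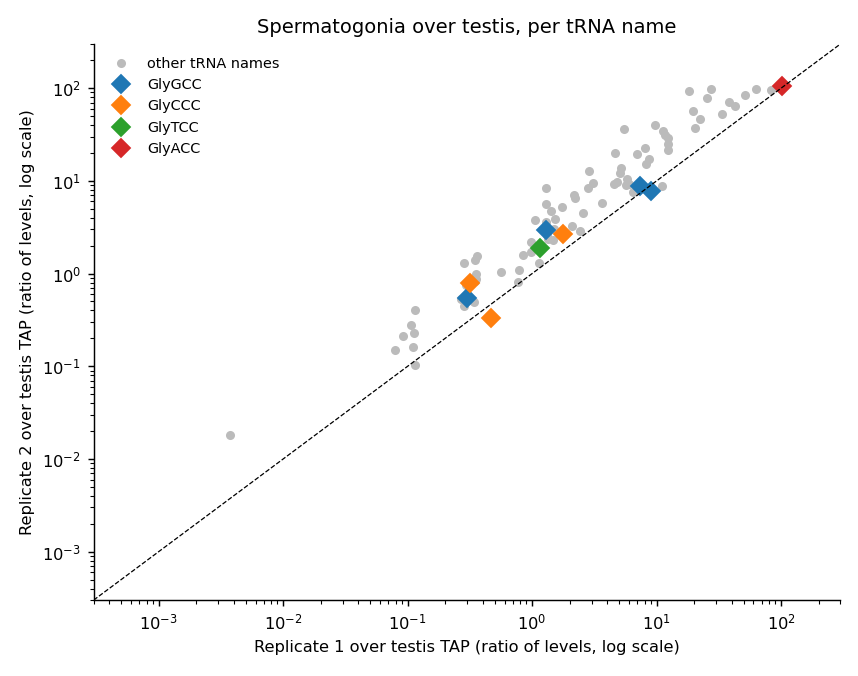
Ratio of spermatogonia to testis TAP levels for 88 tRNA names, replicate 1 on the x axis and replicate 2 on the y axis (both log), with the dashed line where they are equal; 2 other tRNA names with 0 reads in a replicate are not drawn. GlyACC (red) lies at 101 and 107, above all grey points on both axes, and most grey points lie above the line.

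The comparison changed with the testis library. Against the 5Pase library, the glycine sum in spermatogonia was 1.08 times (1.02 to 1.13) and 1.26 times (1.19 to 1.33) the testis level. GlyGCC was 0.944 ± 0.0990, GlyCCC 0.497 ± 0.142 and GlyTCC 0.588 ± 0.202 (SD, n = 2), so the higher values of these 3 anticodons against the TAP library were not seen against the 5Pase library. GlyACC was still 8.31 times (6.70 to 10.3) and 8.77 times (7.05 to 10.9) the 5Pase level, and chr1.trna706-GlyGCC was 3.43 and 2.98 times. These were the 2 of the 9 names that were at least 2-fold higher in both replicates against each of these testis libraries.

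The spermatogonia replicates, which are separate samples, differed by more than read counting alone would give, which is stated as a description of these 2 libraries. Over the 12 glycine names, the chi-square statistic of the reads in the 2 replicates was 9.78 times its degrees of freedom, against 65.7 times over all 163 tRNA names with enough reads, a statistic that also grows with depth. In RPM, the ratio of replicate 2 to replicate 1 had a median of 1.47 over 11 glycine names, with a range of 0.711 for chr6.trna317-GlyCCC to 2.49 for chr3.trna752-GlyCCC, and 8 names were above 1. Over 130 other tRNA names the median was 2.07 and 123 were above 1. The ratio was 1.06 for chr11.trna205-GlyACC, 1.22 for chr8.trna887-GlyGCC, 0.868 for chr1.trna706-GlyGCC and 1.50 for chr3.trna755-GlyCCC. The same 4 names led the glycine reads in both replicates, with shares in replicate 2 of 36.3%, 35.4%, 6.96% and 15.2%, against 40.3%, 34.1%, 9.39% and 11.9% in replicate 1.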

How the data were processed

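The values used are read counts per RNA or repeat name, which the authors deposited without normalization for each library, after removing the adaptor with Cutadapt and assigning reads with RepeatMasker (versions not given in the sources used here). No genome build is named, so no coordinates are given. In the untreated and 5Pase tables, 1 line each lacked a count and was left out.

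From the counts, RPM, ratios, Wilson intervals and log-ratio intervals (exact where the denominator had under 4 reads) were computed in Python (version 3.11.15) using scipy 1.17.1, numpy 2.4.6 and, for figures, matplotlib 3.10.9. No test between groups was possible with 1 library per testis treatment. Intervals were checked on counts simulated with counting error only for spermatogonia replicate 1 over replicate 2 (385 names, 200 with a 4-fold change). There, 94% of those for changed names held the true ratio. This checks the formula and gives no coverage for differences between samples, because the real replicates differed by more than counting error. Groups came from the sample labels, and the kit and the age of the mice from the study's text. Named were all anticodons, the 3 most abundant names per library, the 2 highest and lowest per ratio, and the 3 nearest amino acids; further glycine names are given to account for all 12. Members and lists were chosen with earlier results of these data known. As alternatives, other denominators, another testis library, fewer names and single replicates were tried.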

Additional observations from a re-analysis of the deposited data

How the results depend on the processing

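The glycine sum after TAP over untreated testis was 0.876 per listed read, 0.767 per sequenced read and 0.555 per read of other tRNA names, and turned to 1.66 with median-of-ratios size factors over 169 names. For 5Pase over untreated these values were 1.66, 1.80, 1.24 and 1.48, for TAP over 5Pase 0.526, 0.426, 0.447 and 1.12, and for spermatogonia over TAP 3.69, 5.08, 2.68 and 3.27. The last was 3.67 without the most abundant name, 1.17 with the 5Pase library in place of TAP, and 5.34 to 6.26 when either replicate was left out. The reads of other tRNA names were mostly glutamate tRNA in testis, whereas glutamate held 4.18% and 3.51% of the tRNA reads in spermatogonia. The cause of these shifts was not tested. GlyACC in spermatogonia over TAP ranged from 8.54 with the 5Pase library to 92.6 per sequenced read, under a main value of 104, and was 49.0 per read of other tRNA names.

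The glycine share in spermatogonia was 7.19% to 13.8% of tRNA reads with either replicate left out, and 0.292% of listed reads. The share of the most abundant name was 36.3% to 40.3% with either replicate left out, and 44.7% for the most abundant anticodon, GlyGCC. The chi-square statistic between replicates was 14.7 per degree of freedom with at least 50 reads per name.

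Of 205 values of single names and anticodons under an alternative, 42 fell on the other side of 1, of which 16 belonged to ratios of 2-fold or more and 26 to smaller ones. With median-of-ratios size factors, TAP over untreated was 1.27 for GlyGCC, 1.95 for GlyCCC (1.03 per listed read), 1.14 for chr1.trna1392-GlyGCC, 1.85 for chr3.trna755-GlyCCC, 2.31 for chr3.trna752-GlyCCC and 2.72 for chr6.trna317-GlyCCC, and TAP over 5Pase was 1.41 for GlyCCC, 2.16 for GlyTCC and its name chr3.trna746-GlyTCC (1.01 per listed read), 2.11 for chr1.trna706-GlyGCC, 1.60 for chr3.trna752-GlyCCC, 4.49 for chr6.trna317-GlyCCC and 1.32 for chr3.trna755-GlyCCC. With the 5Pase library, spermatogonia over testis was 0.944 for GlyGCC, 0.497 for GlyCCC, 0.588 for GlyTCC, 0.858 for chr8.trna887-GlyGCC, 0.273 for chr1.trna1392-GlyGCC and 0.528 for chr3.trna755-GlyCCC. Per read of other tRNA names it was 0.846 and 0.973 for the last 2 against TAP, 0.854 for GlyCCC and 0.650 for GlyTCC, which was 0.932 per listed read and 0.831 with size factors. No paired analysis was possible because the testis groups have 1 library each. Depth limits the names with few testis reads: a ratio to 1 or 18 reads of GlyACC has a wide interval.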
